A study of Mus musculus with 6 samples.

Results

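Retnla, Folr2, Cd209f, Cd209d, Cd209g, Ccl24, Clec10a, Mrc1, Cd163 and Cbr2 are 10 of the 33696 genes counted in single cells of the mouse genioglossus, the muscle that pulls the tongue forward. They were taken by symbol from the gene lists of the files, each symbol named 1 gene, and they were picked with the difference between OSA and control macrophages in these libraries in view. Their levels are therefore given as a description without p-values. Droplet single-cell libraries of male mice came in a control group and an OSA-4W group, which was collected 4 weeks after a model of obstructive sleep apnea (OSA) was set up. All were primary tissue and carried the same batch label, and the labels name no strain, age or way of making the model. The labels list 3 libraries a group but do not say that each was a separate animal, so p-values here measure the spread between libraries, which may be technical. Counts of 1 control library (replicate 2) and 3 OSA libraries were read, while the counts of the other control libraries were not analysed here. The spread in every test came from the OSA libraries alone, and the single control was taken to vary as they do.

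These genes belong to a program of tissue-resident and alternatively activated macrophages. Macrophages that settle in a tissue keep receptors for clearing debris, haemoglobin and glycans, and the cytokines interleukin 4 and interleukin 13 act through the STAT6 factor to raise a further set of genes. Folr2 (the folate receptor beta), Cd163 (a scavenger receptor for haemoglobin bound to haptoglobin) and Mrc1 (the mannose receptor) are uptake receptors. Cd209d, Cd209f and Cd209g are mouse relatives of the human lectin DC-SIGN, and Clec10a is a lectin for galactose-type sugars. Retnla encodes a secreted resistin-like protein that is a classic target of STAT6, Ccl24 encodes a chemokine that draws eosinophils through the receptor Ccr3, and Cbr2 encodes a carbonyl reductase.

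The promoter windows show which of these genes share sequence and which hold the letters of macrophage factors. The RefSeq windows of the build GRCm38.p6, here the 250 bases before the start site, were found for 8 of the 10 genes, with 2 start sites for Folr2 and no entry for Ccl24 and Clec10a. The authors' builds were GRCm39 and mm39, so these coordinates were not joined to the counts. Cd209f (chr8:4105765-4106014, minus strand) and Cd209g (chr8:4134486-4134735, plus strand) are printed because they share an unbroken run of 154 bases, 61.6% of the window, with all shared runs of at least 12 bases in capitals. Retnla (chr16:48842359-48842608, plus strand) and Cd209d (chr8:3878500-3878749, minus strand) are printed for their matches to the STAT6, PU.1 or C/EBP letters, in capitals.
Cd209f: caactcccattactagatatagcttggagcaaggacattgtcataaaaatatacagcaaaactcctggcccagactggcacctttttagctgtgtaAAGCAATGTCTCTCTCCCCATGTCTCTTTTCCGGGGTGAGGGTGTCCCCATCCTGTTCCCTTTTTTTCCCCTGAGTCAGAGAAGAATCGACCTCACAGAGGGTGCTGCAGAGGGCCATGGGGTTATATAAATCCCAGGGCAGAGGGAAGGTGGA
Cd209g: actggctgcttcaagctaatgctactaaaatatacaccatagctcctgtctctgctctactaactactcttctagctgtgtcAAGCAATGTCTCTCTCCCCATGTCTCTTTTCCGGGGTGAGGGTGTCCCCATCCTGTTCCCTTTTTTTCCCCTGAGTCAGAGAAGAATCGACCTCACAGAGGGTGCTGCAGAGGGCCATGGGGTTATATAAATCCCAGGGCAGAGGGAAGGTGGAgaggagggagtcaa
Retnla: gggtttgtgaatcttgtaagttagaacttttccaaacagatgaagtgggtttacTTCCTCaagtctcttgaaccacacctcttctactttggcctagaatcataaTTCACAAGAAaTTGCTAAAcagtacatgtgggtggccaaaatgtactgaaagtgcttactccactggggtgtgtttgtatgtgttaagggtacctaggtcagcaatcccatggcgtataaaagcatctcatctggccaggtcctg
Cd209d: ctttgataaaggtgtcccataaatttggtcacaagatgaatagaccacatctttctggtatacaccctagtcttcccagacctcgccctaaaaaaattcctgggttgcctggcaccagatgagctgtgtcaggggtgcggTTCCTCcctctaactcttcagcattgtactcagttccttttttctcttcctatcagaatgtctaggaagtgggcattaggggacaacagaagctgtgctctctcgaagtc
The shared run starts 154 bases before the Cd209f start site and 168 bases before that of Cd209g. No other pair of windows shared a run longer than 10 bases, and Cd209d shared none longer than that with either relative. Searched on both strands, the STAT6 letters, TTC and GAA with any 4 bases between them, lay at -145 in the Retnla window. The C/EBP letters TTGCNNAA lay at -134, next to them. Retnla was the only gene of the 8 with either motif, which 5.85% and 9.56% of 32851 mouse promoter windows of that length hold. The PU.1 letters GAGGAA were in Retnla (-196), Cd209d (-110), Cbr2 (-79) and Mrc1 (3 matches), against 23.3% of all windows. The MAF letters TGCTGA were in Retnla (-47), Cd209d (-93) and both Folr2 windows (-220 and -19), against 16.1% of all windows. The KLF letters CCACCC were in Retnla (-116), both Folr2 windows (-63 and -52) and Cbr2 (3 matches), against 28.1%. A match of letters is not a bound site, and its absence says only that the letters are not in this window.

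Transcripts of Cd209f and Cd209g overlap as well, which bears on their counts. In the GENCODE M21 transcripts 21.5% of the 90-base windows of Cd209f also occur in Cd209g, and 12.2% of those of Cd209g in Cd209f, while Cd209d shares none with another gene. The authors' counting could have split or dropped reads in those stretches, so the separate values of Cd209f and Cd209g are uncertain. Clec10a shares 3.25% of its windows with Mgl2 and Cbr2 6.12% with Gm11771.

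Macrophage-like cells were named from 10 markers that include none of the 10 genes, such as Adgre1, Csf1r and C1qa. The class held 228 control cells and 457, 445 and 1570 cells in OSA replicates 1, 2 and 3, which were 1.72% of control cells and 3.003%, 3.64% and 11.4% of OSA cells. The summed level of the macrophage markers was 11541 counts in each 1000000 UMIs (CPM) in the control and 8941 to 10184 CPM in OSA, with no marker at 0. Neutrophil markers summed to 155 CPM in control cells and 300, 840 and 371 CPM in OSA, and monocyte markers to 474 CPM and 770 to 985 CPM. Fibroblast markers summed to 300 CPM and to 481, 608 and 669 CPM in OSA, and lymphatic endothelial markers to 54.5 CPM and to 143.6, 155 and 192 CPM. Their part in the results was not tested. All 6 barcode lists were compared, and any pair of libraries shared 41 to 67 barcodes, at most 0.468% of a list. The 4 libraries held 70217449 to 82184913 UMIs and 12229 to 15218 kept cells, with a median of 3889 to 4879 UMIs per barcode. Tissue labels read skeletal muscle cells, yet the myofibre-like class held only 1 to 10 cells per library.

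All 10 genes were lower in the macrophage-like class of every OSA library than in that of the control. The median fitted log2 difference, OSA minus control, was -2.12 over the 10 genes and 0.04 over the 12317 genes tested. By itself the order of the libraries says little, since 35.6% of the genes tested had all OSA libraries below the control. By the quasi-likelihood test of edgeR, adjusted after Benjamini and Hochberg at 0.05, 56 genes rose (0.455%) and 79 fell (0.641%). Of the 10 genes 6 were among those that fell, from which nothing is read because the genes were chosen on this contrast. Left out in turn, OSA replicate 1 gave 15 that rose and 20 that fell, replicate 2 gave 560 and 586, and replicate 3 gave 343 and 328.

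The uptake receptors differed in size and evenness. Folr2 was at 763 CPM in control cells and 157, 255 and 109 CPM in the OSA libraries, a log2 difference of -2.09 ± 0.35 (SE). The control value lay far above all of them. Cd163 was at 192 CPM against 63.1, 94.4 and 19.6 CPM (-1.71 ± 0.81). Mrc1 had the smallest difference of the 10, with 601 CPM against 359, 418 and 99.8 CPM (-1.02 ± 0.71). For Cd163 and Mrc1 OSA replicate 3 was the low library and the SE was large beside the difference.

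The Cd209 lectins had the largest differences of the set. Cd209g was at 98.3 CPM in control cells and 4.01, 7.47 and 4.90 CPM in OSA (log2 difference -4.12 ± 0.33). Cd209f was at 268 CPM against 14.6, 44.8 and 12.9 CPM (-3.49 ± 0.66), and Cd209d at 209 CPM against 16.3, 30.7 and 15.4 CPM (-3.30 ± 0.32). In all of them OSA replicate 2 was the highest OSA library and still lay well under the control. Clec10a, the galactose-type lectin, was at 149 CPM against 41.6, 52.3 and 24.7 CPM (-1.89 ± 0.32).

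The secreted products and the enzyme were also lower in every OSA library. Retnla was at 15386 CPM in control cells and 2017, 3971 and 1229 CPM in OSA, a mean of 2406 ± 1412 CPM (SD, n = 3) and a log2 difference of -2.64 ± 0.47. Ccl24 was at 660 CPM against 139, 223 and 76.1 CPM (-2.15 ± 0.41). Cbr2 was at 897 CPM against 231, 545 and 166 CPM (-1.49 ± 0.55). For all 3 genes OSA replicate 3, the library with most macrophage-like cells, was lowest. Fewer cells with a transcript and less transcript per cell cannot be told apart in such sums, so the genes were also measured by cluster and by cell.

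**Figure D1:**
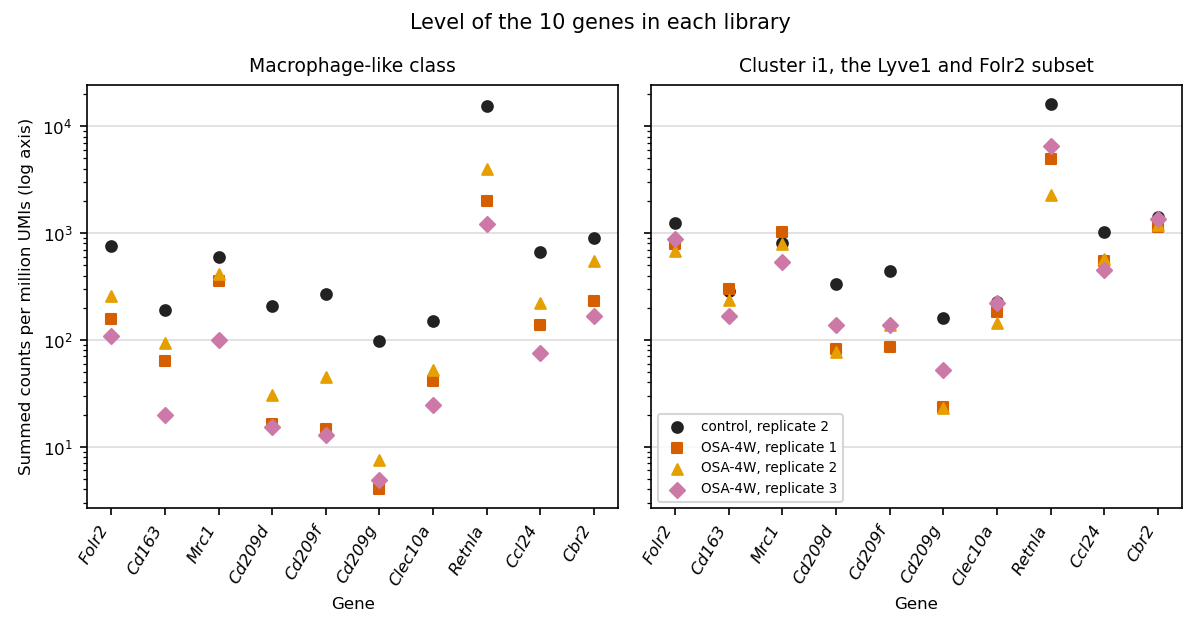
CPM (log axis) of each of the 10 genes in each library, in the whole macrophage-like class (left) and in its cluster i1 (right), with 1 point per library. In the class the control lies above all OSA libraries for all 10 genes, and in i1 the points of Mrc1, Cd163, Clec10a and Cbr2 lie close together while those of the Cd209 genes and Retnla stay apart.

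The class was a mixture whose makeup differed between the libraries. Immune cells were clustered without the 10 genes among the variable genes, which left 8 macrophage-like clusters. Cluster i1, led by Lyve1, Pf4, Fcna and F13a1 beside several of the 10 genes, held 65.8% of control macrophage-like cells and 23.6%, 32.6% and 15.5% of those in OSA. By UMIs it held 60.9% of the control class and 16.9%, 30.6% and 9.25% of the OSA classes. Clusters i10, i21 and i22, led by Gpnmb, Spp1, Saa3 and Trem2, held 1, 2 and 0 control cells. They held 31, 82 and 56 cells in OSA replicate 1, 6, 20 and 30 in OSA replicate 2 and 156, 379 and 378 in OSA replicate 3. The low-UMI cluster i18 held 6 control cells and 30, 121 and 256 OSA cells, so the OSA libraries differed among themselves in makeup. In the class sums a change of makeup and a change of level within cells cannot be told apart. Immune clusters with macrophage markers that were left unnamed because at least 40% of their cells were called doublets held a further 6.10% to 7.49% of such cells in each library.

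In cluster i1, the largest macrophage-like cluster of the control, the levels of the 10 genes differed from each other in how far they lay from the control. It held 150 control cells and 108, 145 and 244 OSA cells. The Cd209 genes, Retnla and Ccl24 were still lower in all OSA libraries, whereas Mrc1, Cd163, Clec10a and Cbr2 were near the control level. The median log2 difference over the 10 genes was -0.80, against 0.03 over the 8972 genes tested in i1. The control lay above every OSA library for 8 of the 10 genes, all but Mrc1 and Cd163, and for 24.9% of the genes tested. In the same edgeR test 24 genes rose (0.267%) and 21 fell (0.234%), and 4 of the 10 were among the latter, from which nothing is read. With OSA replicate 1 left out 60 rose and 38 fell, and with OSA replicate 2 left out 31 rose and 11 fell.

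Among the lectins of i1, Cd209g was at 160 CPM in control cells and 23.7, 23.2 and 52.0 CPM in OSA (log2 difference -2.19 ± 0.33). Cd209f was at 438 CPM against 86.3, 138 and 139 CPM (-1.82 ± 0.26). Cd209d was at 333 CPM against 82.9, 77.2 and 137 CPM (-1.70 ± 0.27). The control lay far above each OSA library for all of them. Clec10a was at 228 CPM against 184, 143 and 221 CPM (-0.29 ± 0.28), and its highest OSA library was almost level with the control.

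For the secreted products of i1, Retnla was at 16258 CPM in control cells and 4961, 2267 and 6498 CPM in OSA (-1.80 ± 0.51). OSA replicate 2, which was the highest OSA library in the whole class, was the lowest in i1. Ccl24 was at 1025 CPM against 553, 566 and 455 CPM (-0.96 ± 0.25), an even difference over the OSA libraries. Folr2 was at 1233 CPM against 787, 681 and 884 CPM (-0.63 ± 0.26).

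The remaining genes of i1 lay close to the control. Mrc1 was at 809 CPM in control cells and 1022, 782 and 542 CPM in OSA (-0.05 ± 0.27), with the control inside the OSA range. Cd163 was at 288 CPM against 298, 235 and 168 CPM (-0.31 ± 0.28), again inside that range. Cbr2 was at 1415 CPM against 1138, 1181 and 1353 CPM (-0.19 ± 0.27). In these genes the difference was within about 1 SE, so a difference of this size was not detectable with 1 control library.

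Cluster i1 was itself a mixture at a finer resolution. At resolution 1.5 its cells fell mainly into a cluster led by Cbr2, Lyve1 and Pf4 beside Retnla, with 131 of 150 control cells and 72, 77 and 89 OSA cells, and a cluster with Ccl8 and Ccl7 among its leading genes, with 17 control and 34, 59 and 119 OSA cells. The makeup within i1 thus differed between control and OSA as well. In the whole of the first of these clusters, a comparison added after seeing the data, the log2 difference was -2.06 ± 0.35 for Cd209g, -1.59 ± 0.27 for Cd209f, -1.56 ± 0.28 for Cd209d and -0.95 ± 0.25 for Ccl24. Retnla was at 17130 CPM in control cells there and 6559, 2309 and 8988 CPM in OSA (-1.51 ± 1.01), and Folr2 differed by -0.49 ± 0.25. Clec10a, Mrc1, Cd163 and Cbr2 had the control inside the OSA range, at -0.24 ± 0.29, 0.15 ± 0.26, 0.02 ± 0.28 and -0.08 ± 0.26. Markers of other cells also differed in i1, where fibroblast markers summed to 292 CPM in control cells and 491, 614 and 748 CPM in OSA and monocyte markers to 36.0 and to 71.0, 84.9 and 126.7 CPM. Neutrophil markers were at 158 CPM in i1 of the control and 144, 772 and 177 CPM in OSA, and the part of these markers in the results was not tested.

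Setting each OSA library to the control's makeup of clusters by UMIs gave a second view, added after the data were seen. The log2 ratio of mean CPM in the class then went from -3.47 to -1.85 for Cd209f, from -2.68 to -1.12 for Retnla, from -2.13 to -0.63 for Folr2 and from -2.18 to -0.74 for Ccl24. It became -1.57 for Cd209d and -2.29 for Cd209g. For Clec10a it became -0.32, for Cd163 -0.29, for Cbr2 -0.21 and for Mrc1 0.00. At equal makeup of the 8 clusters, which leaves differences within i1, the Cd209 genes kept the largest differences of the set, and the last 4 genes the smallest.

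**Figure D2:**
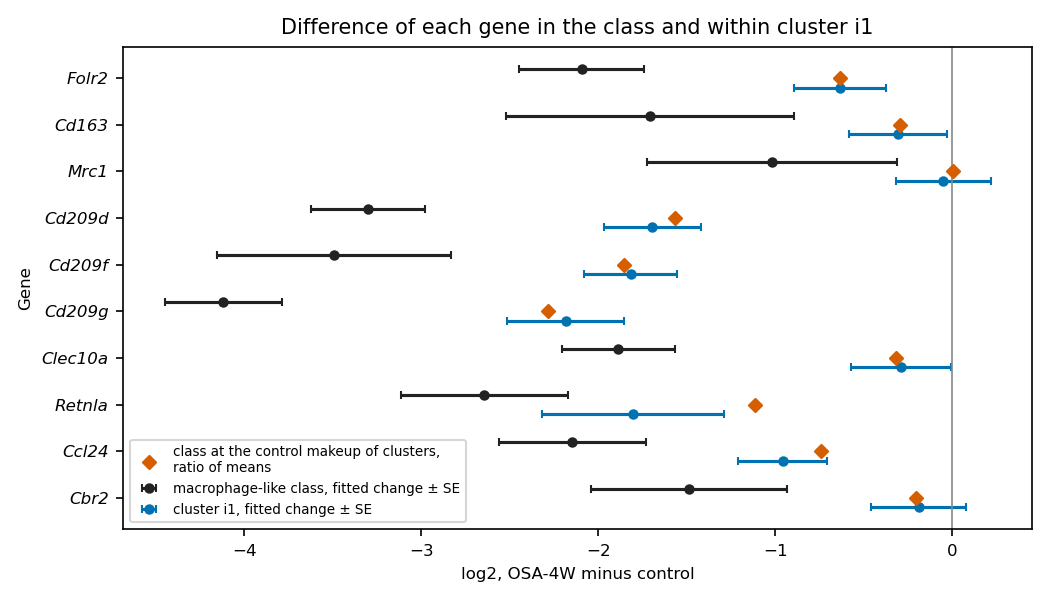
Log2 difference, OSA minus control, of each gene in the macrophage-like class (black, ± SE of the fit), in cluster i1 (blue, ± SE) and in the class with each OSA library set to the control's makeup of clusters (orange diamonds, ratio of means). The differences in i1 are smaller than in the class for all 10 genes and stay below -1.6 for Retnla and the Cd209 genes.

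The genes fell into different patterns over the macrophage-like clusters. Cd209f and Cd209g were found almost only in i1, which held 93.9% to 100% of the class UMIs of Cd209f and 94.7% to 100% of those of Cd209g in each library. Folr2 had 98.4% of its control UMIs in i1 and 75.0% to 84.7% of its OSA UMIs. Cbr2, Clec10a, Cd163, Ccl24 and Cd209d also had over 91% of their control UMIs there. Mrc1 was the broadest of the receptors, with 82.1% of control and 48.2% to 57.2% of OSA UMIs in i1, and i8 held 10.6% to 25.5% of its OSA UMIs.

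Retnla had a second site outside i1. Cluster i0, led by Lyz1, Fcrls and Ear2 beside Retnla, held 27 control and 19, 41 and 26 OSA cells and met 3 of the 10 macrophage markers. At resolution 0.6 a cluster of 298 cells led by the same genes was left unnamed. More markers of another class were among its leading genes, so the macrophage-like name depends on the resolution. In what follows i0 is the cluster at resolution 1. There the summed level of Retnla was 17612 CPM in control cells and 14534, 13859 and 18134 CPM in OSA. The control sum thus lay inside the OSA range. In i0 cells with a Retnla UMI the median was 183.5 UMIs in the control and 83, 46.5 and 165 in OSA. Median depth of all i0 cells was 14384 UMIs in the control and 12467, 11362 and 10637 in OSA. Thinned to an equal depth, 96.3% of control cells and 68.4%, 78.0% and 88.5% of OSA cells had a Retnla UMI. Median and share were lower in each OSA library, though the exact binomial intervals of the shares overlapped with the control. In i1 the sum of every OSA library was below the control, and the difference between the clusters was not tested. In cluster i0 Folr2, Cbr2 and Cd209f were at 5.12, 5.12 and 2.56 CPM in the control, while Mrc1 was at 195 CPM in control cells and 351, 295 and 251 CPM in OSA. Of the class UMIs of Retnla i0 held 29.7% in the control and 51.8%, 61.4% and 36.5% in OSA. In cluster i12 Retnla was at 1205 CPM in control cells and 689, 961 and 1502 CPM in OSA. In cluster i8, led by Pf4, Lyz1, Mgl2 and C1qc with 16 control and 63, 44 and 82 OSA cells, Retnla was at 11109 CPM in control cells and 506, 5799 and 3316 CPM in OSA.

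Ccl24 also left i1. In i0 it was at 53.8 CPM in control cells and 438, 76.1 and 286 CPM in OSA, higher in each OSA library, which is against its direction in i1. Single cells weighed on those sums. Of 26 cells of OSA replicate 3 in i0, 6 had a Ccl24 UMI and 1 of them had 69 of the 81 UMIs. In cluster i22, which had no control cell, Ccl24 was at 36.4, 128 and 59.0 CPM. Cbr2 was at 713 CPM in OSA replicate 2 and 129 and 281 CPM in the others in cluster i18, a cluster of low UMI totals led by Arg1 among others.

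**Figure D3:**
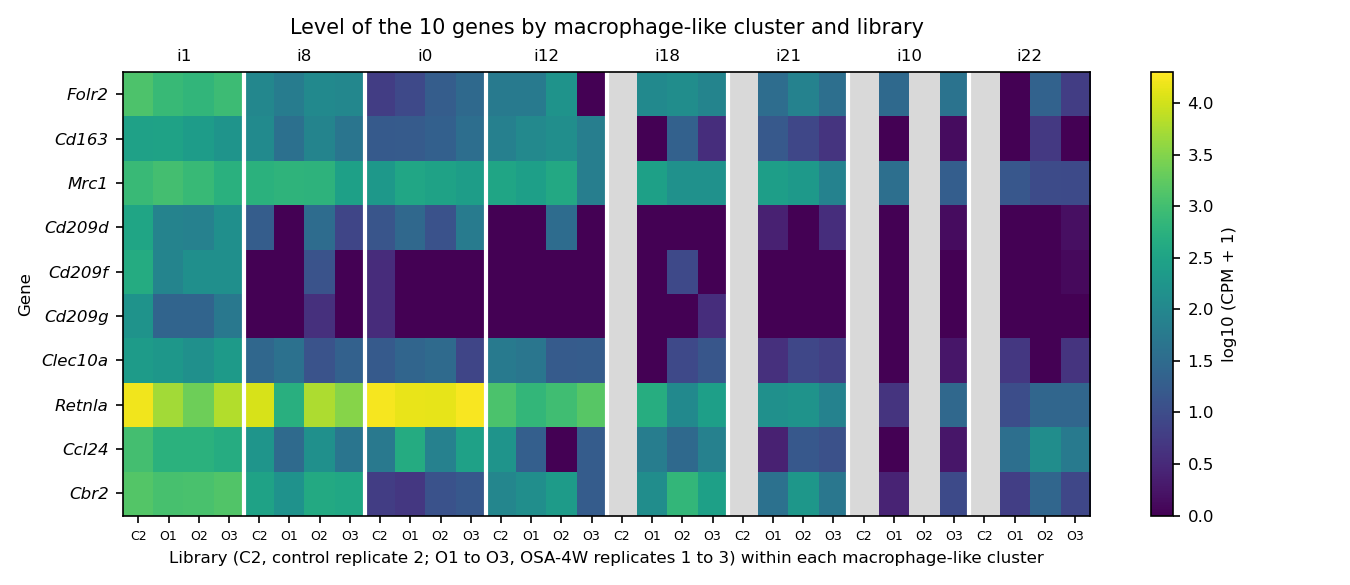
Level of each gene as log10 (CPM + 1) in each macrophage-like cluster and library, with rows for genes and 4 columns per cluster; grey marks fewer than 10 cells. Cd209f and Cd209g are found almost only in i1, Mrc1 in most clusters, and Retnla highest in i1, i8 and i0 with lower levels in i12 and i18; in i0 the control value of Retnla lies inside the OSA range.

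Outside macrophages most of the genes were near 0. In the 9 other classes with at least 30 cells in each library, which span stroma, vessels, nerve, T and NK-like cells and neutrophil-like cells, the highest level was 0.866 CPM for Cd209f, 0.272 for Cd209g, 4.48 for Cd209d, 2.98 for Cd163 and 19.4 for Folr2. Retnla was found everywhere at 8.12 to 67.4 CPM. In endothelial-like cells, which should lack it, Retnla was at 38.8 CPM in control cells and 12.3, 20.4 and 28.3 CPM in OSA, and this was 10.0% to 13.2% of the level over all cells of the same library. The Retnla values outside immune cells are read as background. Macrophage-like cells held 85.1% to 89.6% of all Retnla UMIs of a library.

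Of the immune classes too small to test, dendritic-like and monocyte-like cells held some of the genes. In dendritic-like cells, 10 in the control and 22, 46 and 96 in OSA, Clec10a was at 128 CPM and 85.9, 92.0 and 151 CPM. Cd209d was at 107 CPM there against 22.4, 29.9 and 78.3 CPM, and Mrc1 at 160 CPM against 134, 83.4 and 27.0 CPM. The control values come from 10 cells and lie inside the OSA range for Clec10a only. In monocyte-like cells Ccl24 was at 0 in the control and 125, 3.53 and 24.7 CPM in OSA, from 2 of 46, 1 of 37 and 6 of 88 cells.

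In the class the share of cells in which a gene was detected was lower in every OSA library for all 10 genes. Each cell was thinned to 1000 UMIs, which left out 11 control and 27, 28 and 130 OSA macrophage-like cells below that depth, and the intervals are exact binomial ones at 95% for counting error only. Retnla was detected in 63.6% of control macrophage-like cells (56.8 to 70.0) and in 15.8%, 20.4% and 10.1% of OSA cells. Folr2 was detected in 45.6% against 12.3%, 16.1% and 10.0%, and Cd209f in 16.1% against 0.930%, 2.16% and 1.32%. Without thinning the values were 74.1% and 22.1%, 30.6% and 23.2% for Retnla. Of endothelial-like cells 3.93% in the control and 0.940% to 2.71% in OSA had a Retnla UMI at that depth, and 13.2% and 4.42% to 9.45% without thinning. The median depth was 4702 to 6425 UMIs in macrophage-like and 3020 to 3789 UMIs in endothelial-like cells.

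Within i1 the thinned share was lower in every OSA library for 8 of the 10 genes, all but Mrc1 and Cd163. Cd209f was detected in 26.4% of control cells (19.5 to 34.2) and 3.77%, 4.90% and 8.33% of OSA cells, and Cd209d in 20.9% against 2.83%, 2.80% and 6.25%. Cd209g was detected in 12.2% of control cells and in 0%, 2.10% and 2.50% of OSA cells. Retnla was detected in 63.5% against 33.0%, 20.3% and 30.8%, and Ccl24 in 56.1% against 31.1%, 32.9% and 25.4%. Folr2 was detected in 63.5% against 41.5%, 35.0% and 44.6%, and Clec10a, whose summed level was near the control, in 25.0% against 16.0%, 12.6% and 15%. Cd163 was detected in 24.3% against 24.5%, 21.7% and 9.17%, so only OSA replicate 3 was low. Mrc1 was detected in 48.0% of control cells and 62.3%, 46.9% and 35.0% of OSA cells, and Cbr2 in 70.9% against 55.7%, 65.0% and 66.2%. For Mrc1, Cbr2 and Clec10a the intervals of each OSA library and the control overlapped.

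Cells of i1 that did hold a transcript can be compared by their UMIs without thinning. Retnla was in 110 of 150 control cells with a median of 76 UMIs in those cells. It was in 41 of 108, 54 of 145 and 91 of 244 OSA cells with medians of 43, 10.5 and 38 UMIs. Both the share of positive cells and the median UMIs in them were thus lower in each OSA library. Without thinning, 23.1% of control fibroblast-like cells and 7.73%, 13.4% and 15.4% of OSA ones also had a Retnla UMI. Some positive i1 cells may hold background only, and its part in the medians was not tested. For Cd209f the median in positive cells was 5 UMIs in the control and 5, 4 and 3 in OSA, so its lower sum lay mostly in the number of positive cells, 64 of 150 against 7 of 108, 20 of 145 and 35 of 244. The median depth of i1 cells was 6143 UMIs in the control and 5849, 5139 and 4268 in OSA.

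**Figure D4:**
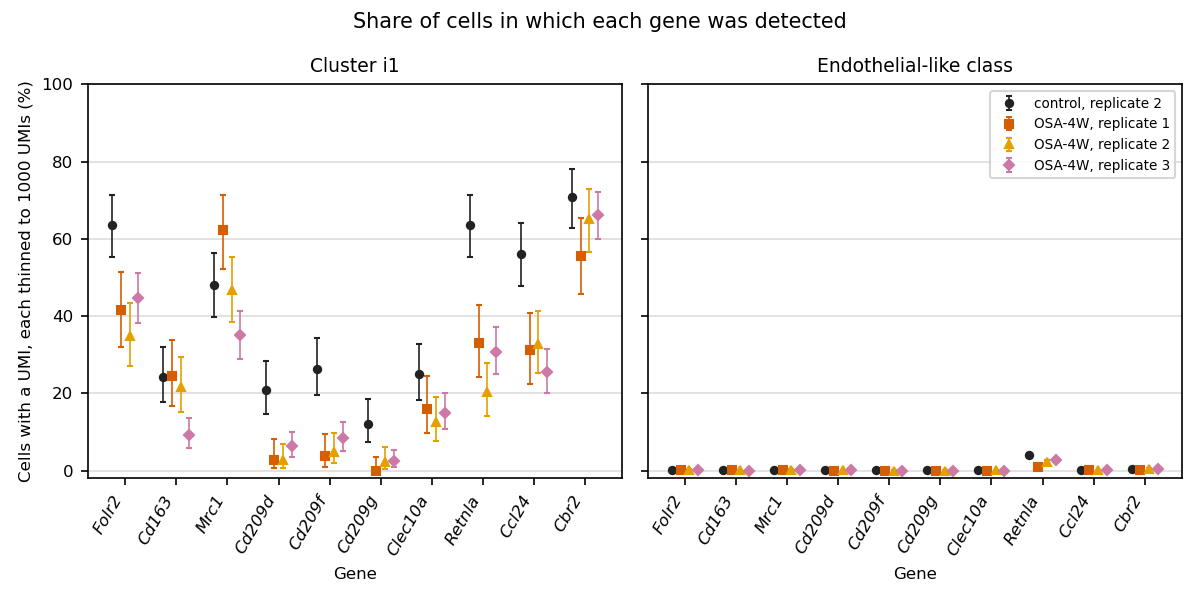
Share of cells (%) with a UMI of each gene after thinning each cell to 1000 UMIs, in cluster i1 (left) and endothelial-like cells (right), 1 point per library with exact binomial 95% intervals. Retnla, Ccl24, Folr2, Clec10a, Cbr2 and the Cd209 genes have a higher share in the control than in each OSA library in i1, and endothelial-like cells stay below 5% for all 10 genes.

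The genes were detected together in fewer OSA cells. In thinned i1 cells at least 5 of the 10 genes were found in 43.2% of control cells and in 12.3%, 5.59% and 11.7% of OSA cells, and the median number found was 4 against 3, 2 and 2. No endothelial-like cell in any library had 3 of them. Across the 148 thinned control cells of i1 the rank correlation was highest between Cd209f and Cd209g (Spearman's rho 0.52), and it was 0.42 between Retnla and Cd209f. Correlations of Cd209f with Mrc1 (0.00) and Cd163 (-0.02) were near 0. These values are across cells of 1 library and rest on sparse counts, and for Cd209f and Cd209g on transcripts that share sequence. In OSA cells of i1 the rho of Cd209f and Cd209g was 0.41 in replicate 2 and 0.045 in replicate 3, and it was not defined in replicate 1, where no thinned cell had Cd209g.

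Genes of the same program outside the 10 were given by 5 lists. Of 17 other resident macrophage genes 15 were lower and 2 higher in the class, 1 fell and none rose past the threshold, with a median log2 difference of -1.18. In i1 11 of 16 were lower, with a median of -0.13. Timd4, a receptor for dying cells that marks long-lived resident macrophages, fell in the class from 70.4 CPM to 10.03, 12.98 and 3.59 CPM (-3.07 ± 0.51, edgeR adjusted p = 0.0323) and in i1 from 105.8 CPM to 59.2, 36.0 and 33.1 CPM (-1.33 ± 0.34, adjusted p = 0.0317). Without OSA replicate 1 the edgeR adjusted p in the class was 0.126, and over 13 alternatives it ran from 2.05e-15 to 0.126. The value for i1 was 0.181 with OSA replicate 2 left out and 0.120 with OSA replicate 3 left out. It was 0.644 in the largest control cluster at resolution 1.5, and over 8 alternatives it ran from 0.00236 to 0.862.

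The other abundant resident genes did not pass the test in i1. Unlike the 10 genes, the listed resident genes could enter the variable genes of the clustering. Lyve1, Pf4 and F13a1 are among the genes that lead i1, so their level there is partly fixed by the choice of cells. Pf4, a platelet-type chemokine also made by resident macrophages, was at 5829 CPM in control cells and 5166, 6565 and 6312 CPM in OSA. Lyve1, a hyaluronan receptor, was at 1674 CPM against 1788, 1807 and 1171 CPM. F13a1, a clotting factor subunit, was at 884 CPM against 986, 878 and 595 CPM. Selenop, a selenium transport protein, was at 1670 CPM against 1577, 970 and 1110 CPM (adjusted p = 0.844 in edgeR). In the whole class Lyve1 was at 1060 CPM and 323, 667 and 133 CPM (-1.48 ± 0.80, adjusted p = 0.469).

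Other genes of alternative activation did not move as a group. Of 16 such genes 15 were tested in the class, 7 were higher and 8 lower, with a median log2 difference of -0.02. Tgm2, a protein-crosslinking enzyme, rose from 23.3 CPM to 165, 141 and 196 CPM (2.94 ± 0.42, edgeR adjusted p = 0.00472), and no other passed. Mgl2, the lectin next of kin to Clec10a, was at 516 CPM against 140, 237 and 73.3 CPM (-1.75 ± 0.48, adjusted p = 0.145). Arg1, the arginase of alternative activation, had 0 control counts and 34.1, 240.3 and 13.4 CPM in OSA, at least 48.1-fold higher by the OSA mean with the control set to 3 counts and at least 11.9-fold without OSA replicate 2, and did not pass (adjusted p = 0.60). Chil3, a secreted chitinase-like protein, also had 0 control counts and 8.31, 8.26 and 3.94 CPM in OSA (at least 3.43-fold higher, adjusted p = 0.0609).

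Of the receptors and factors upstream none passed the test. Stat6 was at 65.8 CPM in the class of the control and 67.7, 80.6 and 67.4 CPM in OSA, and Il4ra at 110.3 CPM against 92.9, 142.8 and 80.4 CPM. Klf4, a transcription factor of this program, was at 516 CPM against 304, 356 and 211 CPM (-0.78 ± 0.32, edgeR adjusted p = 0.253). In i1 11 of the 16 genes were tested, 8 higher and 3 lower, with a median of 0.29, and none passed. Il4ra in i1 was at 107.9 CPM against 140.4, 223.9 and 169.2 CPM (adjusted p = 0.531).

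Among the other lectin receptors 1 gene rose and 1 fell in the class. Of 14 other lectin genes 12 were tested in the class, 8 were higher and 4 lower, with a median of 0.85. Cd209b, another Cd209 relative, fell from 37.2 CPM to 3.15, 9.83 and 3.67 CPM (-2.79 ± 0.50, edgeR adjusted p = 0.0222). Without OSA replicate 1 its adjusted p was 0.0695, and over 13 alternatives it ran from 5.21e-10 to 0.0929. Clec4e, a receptor for glycolipids known as Mincle, rose from 5.98 CPM to 88.0, 50.4 and 68.7 CPM (3.61 ± 0.52, adjusted p = 0.00488). In i1 10 were tested with a median of 0.01, Cd209b was at 61.1 CPM against 18.6, 29.6 and 38.8 CPM (adjusted p = 0.483), and 2 others rose. These were the Mincle partner Clec4d, from 4.36 CPM to 27.1, 45.0 and 38.8 CPM (3.08 ± 0.65, adjusted p = 0.00290), and Clec4n, known as Dectin-2, from 8.72 CPM to 59.2, 45.0 and 46.3 CPM (2.51 ± 0.54, adjusted p = 0.00411). The control values of these genes rest on 4 and 8 counts, over 7 alternatives the adjusted p of Clec4n ran from 0.00289 to 0.322, and over 6 that of Clec4d from 0.000298 to 0.524. Both missed the threshold in the largest control cluster at resolution 1.5. Colec12 was at 135 CPM in the class against 43.3, 70.4 and 26.2 CPM (adjusted p = 0.108).

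Ligands and receptors that act on the program were measured too. Of 9 such genes 6 were tested in the class, 3 higher and 3 lower with a median of -0.02, and none passed, nor did any of the 5 tested in i1 (median 0.08). Csf1r, the growth factor receptor of macrophages, was at 965 CPM against 778, 930 and 1062 CPM (edgeR adjusted p = 0.986). It is 1 of the 10 markers that named the class, so its level there is partly fixed by the choice of cells. Il33, an alarmin that acts through Il1rl1, was at 209 CPM in fibroblast-like cells of the control and 277, 235 and 184 CPM in OSA. Il13 had 3 counts in T and NK-like cells of the control and 6, 24 and 25 counts in OSA, or 5.16 CPM and 12.4, 48.4 and 37.3 CPM. Il4 had 0 counts in those cells of the control and 10, 1 and 1 counts in OSA. OSA replicate 1 thus had the most Il4 and the least Il13 of the OSA libraries, on few counts. Ccr3, the receptor for Ccl24, had 0 counts in macrophage-like cells of 3 libraries and 1 count in OSA replicate 3. Of the other eosinophil markers Prg2, Il5ra and Epx were at 0 in that class. Siglecf had 1 count there in the control and 2, 0 and 4 in OSA. The class was named by macrophage markers, so these counts do not measure eosinophils in the tissue.

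Of the family relatives none passed the test in edgeR. Of 10 relatives 7 were tested in the class, 4 higher and 3 lower with a median of 0.53, and in i1 5 were tested with a median of 0.24. Ccl26, a chemokine related to Ccl24, was at 7.97 CPM in control cells and 0.287, 4.33 and 1.22 CPM in OSA (-2.14 ± 0.96, edgeR adjusted p = 0.304), lower in each OSA library. Retnlg, a neutrophil transcript related to Retnla, was at 1.33 CPM in the class of the control and 5.45, 148.7 and 4.37 CPM in OSA. OSA replicate 2 was thus far above the other libraries. Retnlg is itself 1 of the 9 neutrophil markers, whose sum was also highest in that library. Cbr1, Cbr3 and Cbr4, reductases related to Cbr2, were at 13.3, 10.6 and 5.32 CPM in control cells and at 10.6 to 23.5, 22.4 to 46.1 and 2.36 to 6.59 CPM in OSA.

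The genes whose levels over cell classes and libraries were most like those of the 10 were Fcna, Fcrls, Ccl12, Pf4, Cd209b, Slc13a3, Slc9a4 and C3ar1. Likeness was the Pearson correlation of log2 (CPM + 1) with the mean of the 10 genes, each divided by its SD, over 47 library-by-class sums, among 8185 genes of at least 10 CPM in macrophage-like cells, and it ran from 0.95 for Fcna to 0.88 for C3ar1. The sums share libraries and depth, so this is a description without a test. They include the macrophage-like sums of control and OSA, so the ranking partly favours genes that are lower in OSA macrophages. Fcna, a secreted ficolin, was at 408 CPM in the class of the control and 75.7, 156 and 45.4 CPM in OSA. In i1 its log2 difference was -0.56 ± 0.26. Fcrls was at 306 CPM against 107, 145 and 50.5 CPM in the class and had a difference of 0.31 ± 0.30 in i1.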

How the data were processed

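Droplet (10x) libraries were deposited as matrices of UMI counts per gene and barcode. Per the file headers the authors made these counts with Cell Ranger 9.0.1, and per the submitters' processing notes the builds were GRCm39 and mm39. Matrices of 4 of the 6 libraries were used, and those of the remaining 2 controls were not analysed here. The used libraries held 70217449 to 82184913 UMIs.

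Kept cells had at least 300 genes, at least 500 UMIs and at most 20% of UMIs from mitochondrial genes, and doublets called with an assumed rate of 0.1 were removed. Cells were clustered with scanpy 1.11.5 (2000 variable genes, 30 components, 15 neighbours, resolution 1) with no correction between libraries. Immune cells were clustered again without the 10 genes among the variable genes. Clusters were named from at least 3 markers, and the reference level for naming immune clusters was set after the clusters were seen. Counts were summed per library and class (at least 30 cells in each library) and tested with edgeR 4.0.16 (quasi-likelihood test, Benjamini-Hochberg adjustment over all genes tested, 2 residual degrees of freedom), and the code was tested on simulated data. DESeq2 1.42.0 was an alternative. The other alternatives were other filters, scalings and clusterings, thinning, kept doublets and each OSA replicate left out, and 3 were added after seeing the data. All 10 genes are named, as are, from each list, the genes that passed the test and up to 4 of the most abundant, and the 8 genes most like the 10. Other named genes of the lists were chosen after their values were seen. The genes and lists were chosen with earlier results of these data known. Exact intervals cover counting error only.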

Additional observations from a re-analysis of the deposited data

How the results depend on the processing

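Of 130 values of the 10 genes in the class under the alternative fits 129 kept their direction and size within the spread. Retnla moved to -3.40 at resolution 0.6, where a cluster led by Retnla, Lyz1 and Fcrls was left unnamed and so out of the class. The 130 values leave out the setting at the control's makeup of clusters. In i1 76 of 80 values kept their direction and size. In the largest control cluster at resolution 1.5, added after seeing the data, Mrc1 turned to 0.15 and Cd163 to 0.021, and 14 genes rose and 9 fell. Mrc1 turned to 0.065 when the genes were allowed in the clustering and ran from -0.26 to 0.13 when 1 OSA replicate was left out. At the control's makeup of clusters, added after seeing the data, every one of the 10 genes moved by more than the spread of the OSA libraries. The log2 ratio in the class went from -2.68 to -1.12 for Retnla, from -4.17 to -2.29 for Cd209g and from -2.13 to -0.63 for Folr2. The Mrc1 ratio there was 0.0042. The class counts of genes that rose and fell were 389 and 311 with no filter, 27 and 49 with at least 10 counts in each library, and 122 and 182 at resolution 0.6. They were 153 and 96 with DESeq2, where more rose than fell, 90 and 113 with thinned class counts and 35 and 60 at resolution 1.5. Without the clusters of low UMI totals, added after seeing the data, 13 rose and 23 fell, with 2 of the 10 genes among the latter. Leaving out 1 OSA replicate gave 15 to 560 that rose, 20 to 586 that fell and 2 to 10 of the 10 genes. In i1 DESeq2 gave 8 and 3, and leaving out 1 OSA replicate gave 27 to 60 that rose and 11 to 38 that fell. After thinning, the class share of cells with a UMI differed by -14.7 percentage points for Cd209f, -12.2 for Cd209d, -8.65 for Cd209g, -27.1 for Ccl24, -7.50 for Clec10a and -8.68 for Cd163. Of listed genes past the threshold 4 of 51 values in the class and 9 of 21 in i1 missed it under an alternative. Other than fewer samples, genes or clusters, the cause was not tested. No paired analysis was possible because the matrices used share only replicate number 2 between the groups. With 1 control library its spread is unknown, which limits every comparison.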
